A study of Mus musculus with 8 samples.

Results

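The transcripts of 10 apolipoprotein genes (Apoa1, Apoa2, Apoa4, Apoa5, Apob, Apoc1, Apoc2, Apoc3, Apoe and Apom) were followed in liver of WT mice and of mice without the liver X receptors LXRα and LXRβ (LXRDKO). The genes were taken by symbol from a table of 25010 genes, all 10 were present, and all 10 passed the filter on low values. RNA-Seq was done on the left liver lobe, with 2 WT and 2 LXRDKO mice and a library for each mouse. Both groups were on a C57BL/6 background, 8 wk old and fasted for 4 to 6 h before they were killed. The WT mice carried both receptors, and the LXRDKO mice lacked LXRα (gene Nr1h3) and LXRβ (gene Nr1h2) in the whole body. The deletion was thus not limited to hepatocytes or to liver. Whether the WT mice were littermates of the LXRDKO mice is not given in the sources used here. The chromatin accessibility libraries of the same series were not analysed here.

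Apolipoproteins are the protein part of lipoproteins, the particles that carry cholesterol and triglycerides in blood, and hepatocytes are a main source of them. ApoB forms the backbone of very-low-density lipoprotein, apoA-I that of high-density lipoprotein, and the smaller exchangeable apolipoproteins move between particles and set how enzymes and receptors handle them. LXRs bind DNA as heterodimers with the retinoid X receptor and are known to raise Apoe and the Apoc genes of the same cluster in macrophages and adipose tissue when a ligand is present. Their canonical site is a direct repeat of the half-site AGGTCA with 4 bases between the copies.

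None of the 10 genes passed an adjusted P value of 0.05 between LXRDKO and WT livers in limma, in DESeq2 or in edgeR. The limma log2 fold changes lay between −0.17 for Apoa2 and 0.27 for Apoa5, with a median of −0.04. Their combined share of all normalized counts was 4.64% and 4.60% in WT liver, against 4.71% and 4.51% in LXRDKO liver. The share differed more between the 2 LXRDKO livers than between the genotype means of 4.62% and 4.61%. Over all 15578 genes tested, limma called 50 (0.321%) and edgeR 49 (0.315%), and DESeq2 called 567 of 15797 (3.59%). At an unadjusted P value of 0.05, limma gave 0 of the 10 genes, against 13.3% of all genes tested. DESeq2 gave 1, Apoa5, against 7.31% of the 25010 genes it tested. The limma share is not a like-for-like background, since 6 of the 10 were among only 72 tested genes averaging 100000 or more. The median SE in limma was 0.22 for the 10 genes, against 0.17 for all genes tested. Median differences between livers of 1 genotype were 0.14 (WT) and 0.19 (LXRDKO), against 0.18 and 0.17. The share among genes of similar level was not tested. The number of genes called by limma moved to between 2 (without LXRDKO replicate 1) and 262 (without WT replicate 1) when 1 liver was left out. It was 157 without WT replicate 2 and 8 without LXRDKO replicate 2. With 2 livers against 2, the smallest P value of an exact two-sided permutation test on 1 gene is 0.33, and the P values given here rest on spread pooled across genes.

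Libraries held 55772659 and 72842744 reads on genes in WT and 63681131 and 56281367 in LXRDKO. Of the deleted receptors, Nr1h3 had 5785 and 5322 normalized counts in WT liver, against 1712 and 1826 in LXRDKO liver (adjusted P = 0.0147, limma), and Nr1h2 had 2987 and 3110 in WT liver, against 925.5 and 1003 in LXRDKO liver (adjusted P = 0.0147, limma). Hepatocyte markers were abundant in every liver, with Alb between 4644569 and 5959085 normalized counts, and limma, DESeq2 and edgeR called 0 of the 5 that were measured, with 0 at an unadjusted P value under 0.05 in limma. All 5 had a negative log2 fold change, with a median of −0.11, and in 4 of them (Serpinc1, Fgb, Ambp and Ttr) both LXRDKO livers were below the WT livers, as in 23.0% of all genes tested. In bulk liver, fewer cells of a type and less RNA per cell cannot be told apart.

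Upstream sequence of 4 of the genes is shown because Apoe and Apoa1 had the highest levels, Apoa5 was the only gene whose livers did not overlap between genotypes, and Apoc2 was the only one with the half-site AGGTCA. The sequences are from RefSeq on GRCm38.p6, run 5′ to 3′ on the strand of the gene and cover the annotated exon-free part of the 250 bases before the start. Capitals mark, on either strand, the half-site AGGTCA, the variant half-site GGGTCA, the variant half-site AGTTCA the variant half-site GGTTCA and the TATA box letters TATAAA.
Apoe, chr7:19699189-19699438, minus strand: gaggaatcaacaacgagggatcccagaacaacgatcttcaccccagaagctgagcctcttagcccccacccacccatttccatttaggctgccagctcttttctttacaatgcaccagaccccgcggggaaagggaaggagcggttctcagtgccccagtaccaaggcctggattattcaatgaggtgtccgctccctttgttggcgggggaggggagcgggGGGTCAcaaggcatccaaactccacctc
Apoa1, chr9:46228380-46228579, plus strand: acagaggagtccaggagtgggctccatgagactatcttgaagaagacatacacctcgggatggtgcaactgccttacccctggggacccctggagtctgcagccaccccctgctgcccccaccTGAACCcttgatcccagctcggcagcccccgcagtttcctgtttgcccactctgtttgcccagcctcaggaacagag
Apoa5, chr9:46268358-46268607, plus strand: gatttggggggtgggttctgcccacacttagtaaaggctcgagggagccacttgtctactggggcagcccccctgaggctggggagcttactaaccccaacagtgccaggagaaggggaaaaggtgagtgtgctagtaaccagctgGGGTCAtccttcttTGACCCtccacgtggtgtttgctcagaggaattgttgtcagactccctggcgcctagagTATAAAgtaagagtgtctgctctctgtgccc
Apoc2, chr7:19677942-19678082, minus strand: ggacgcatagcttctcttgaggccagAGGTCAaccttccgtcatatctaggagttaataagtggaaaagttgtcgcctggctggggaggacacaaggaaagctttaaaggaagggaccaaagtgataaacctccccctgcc

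RefSeq windows were matched for 8 of the 10 genes, all but Apoc1 and Apoc3. At least 1 of the 4 half-sites was present in all 8 windows, against 38.6% of 32851 RefSeq windows of 250 bases. The windows were searched with any annotated exon in them. Their exon-free part was 0 bases in Apoa4, 1 in Apom, 141 in Apoc2, 200 in Apoa1 and 221 in Apob. The exact half-site AGGTCA was present in 1 of 8, in Apoc2, against 14.0% of all windows. A direct repeat of any 2 of these half-sites with 4 bases between them was present in 0 of 8, against 0.067% of all windows, and one with 1 base between them in 0 of 8, against 0.164%. TATAAA was found in 3 of 8, Apoa2, Apoa5 and Apob, against 12.4%. In Apoe the half-site lay 28 to 23 bases before the start. In Apoa5, GGGTCA lay 104 to 99 bases and its reverse complement TGACCC 90 to 85 bases before the start, followed by TATAAA at 31 to 26. These matches describe letters in the windows only.

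Levels were compared between genes as normalized counts per kb of annotated exon, averaged over the 4 livers. Apoe had 557736 and Apoa1 550798, ranks 4 and 5 of all genes on this scale, and the ranges of these genes over the 4 livers overlapped. Apoa2, the second protein of high-density lipoprotein, followed at 454537 (rank 8), and Apoc1, a small protein of several lipoproteins, at 147655 (rank 19). Apoc3, an inhibitor of triglyceride clearance, had 52077 (rank 55), Apoa5, which favours that clearance, 40019 (rank 67), and Apob 31698 (rank 83). The ranges of Apoa5 and Apob overlapped. Apom, which carries sphingosine 1-phosphate on high-density lipoprotein, had 11609 (rank 218), and Apoa4, known mainly from intestine, had 3598 (rank 652). Apoc2, the cofactor of lipoprotein lipase, was lowest with 288 (rank 5449). All other neighbours in this order had ranges that did not overlap.

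**Figure D1:**
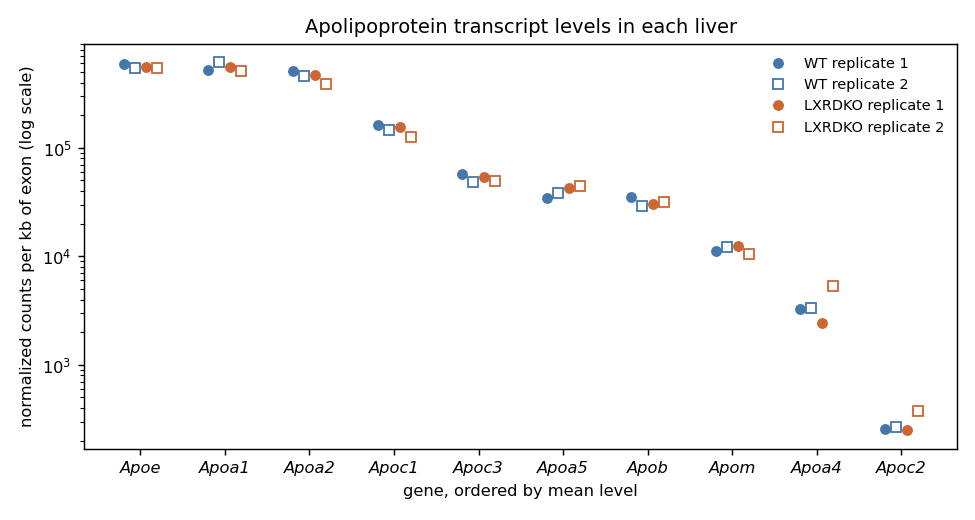
Normalized counts per kb of exon (log axis) of the 10 apolipoprotein genes, ordered by mean level. Each point is 1 liver: blue for WT, orange for LXRDKO, filled circles for replicate 1 and open squares for replicate 2. Levels span from 288 for Apoc2 to 557736 for Apoe, and the livers of both genotypes lie close together except for Apoa4 and Apoc2 in LXRDKO replicate 2.

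The level of Apoc2 depends on how shared reads were counted. Of its 813 exon bases, 646 (79.5%) are also exon bases of Gm44805, a gene annotated on the same strand across Apoc2 and Apoc4, which leaves 167 bases unshared. If reads in the shared bases were dropped, the mean level of Apoc2 per kb of unshared exon would be 1400 instead of 288. The tool that counted the reads, and its treatment of shared bases and of strand, are not given in the sources used here. Apoc4 shares 119 of its 2537 exon bases with the same gene.

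Among the structural proteins, Apoa1 (chromosome 9, 46228580 to 46230466 of GRCm38) had 646961 and 757967 normalized counts in WT liver, against 687178 and 631039 in LXRDKO liver. The groups overlapped, since LXRDKO replicate 1 lay between the WT livers. Its log2 fold change was −0.09 (SE 0.29, 95% interval −0.81 to 0.63, adjusted P = 0.935, limma). Apob (chromosome 12, 7977648 to 8016835) had 494071 and 407050 in WT liver, against 420404 and 445173 in LXRDKO liver. Both LXRDKO livers lay between the WT livers, and the log2 fold change was −0.05 (SE 0.25, adjusted P = 0.955, limma).

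Apoa2 (chromosome 1, 171225054 to 171226379) had 271574 and 244132 normalized counts in WT liver, against 251023 and 209616 in LXRDKO liver. LXRDKO replicate 2 was the lowest of the 4 livers, while LXRDKO replicate 1 lay between the WT livers. This gave the lowest fold change of the 10 genes, −0.17 on the log2 scale (SE 0.20, 95% interval −0.67 to 0.34, adjusted P = 0.797, limma). Apom (chromosome 17, 35128997 to 35132050) had 11411 and 12423 in WT liver, against 12589 and 10619 in LXRDKO liver. Its LXRDKO livers were the highest and the lowest of the 4, with a log2 fold change of −0.04 (SE 0.12, adjusted P = 0.924, limma).

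Apoe, the ligand through which remnant particles bind lipoprotein receptors, lies on chromosome 7 from 19696109 to 19699188. It had 1253806 and 1161289 normalized counts in WT liver, against 1195058 and 1159604 in LXRDKO liver. The groups overlapped, with LXRDKO replicate 1 between the WT livers and LXRDKO replicate 2 just below them. The log2 fold change was −0.04 (SE 0.36, 95% interval −0.92 to 0.85, adjusted P = 0.980, limma), which as a fold spans 0.527 to 1.81. DESeq2 gave −0.04 with an SE of 0.13. Macrophages also express Apoe, and Kupffer cell markers moved with the genotype. All 6 of these markers fell in LXRDKO livers by DESeq2 (2.03% of all genes tested) and 4 of 6 by limma (0.186%). Their summed level was 8331 and 8803 normalized counts in WT liver, against 860 and 492 in LXRDKO liver, and Timd4 was at 0 in LXRDKO replicate 2. The part of Kupffer cells in the Apoe values was not tested. Markers of macrophages in general summed to 8315 and 9631 in WT liver, against 10906 and 6502 in LXRDKO liver, and 0 of 6 were called by limma, DESeq2 or edgeR, with 1 at an unadjusted P value under 0.05 in limma.

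The other genes of the Apoe cluster were Apoc1, Apoc4 and Apoc2. Apoc1 (chromosome 7, 19689481 to 19692660) had 120092 and 109391 normalized counts in WT liver, against 115936 and 94002 in LXRDKO liver, so that only LXRDKO replicate 2 lay below the WT livers. The log2 fold change was −0.13 (SE 0.17, 95% interval −0.56 to 0.29, adjusted P = 0.805, limma). Apoc2 (chromosome 7, 19671579 to 19677941) had 208.7 and 216.4 in WT liver, against 202.2 and 307.7 in LXRDKO liver. These values stand for 183, 255, 213 and 287 reads, for which counting error alone is 5.90% to 7.39%. The LXRDKO livers were the lowest and the highest of the 4 and differed 1.52-fold, more than the genotypes did. Its log2 fold change was 0.23 (SE 0.24, 95% interval −0.37 to 0.83, adjusted P = 0.757, limma), which moved to −0.07 when LXRDKO replicate 2 was left out and to 0.53 when LXRDKO replicate 1 was.

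Apoc3 and Apoa5, which act in opposite directions on plasma triglycerides, lie with Apoa1 and Apoa4 on chromosome 9. Apoc3 (46232933 to 46235636) had 58275 and 48604 normalized counts in WT liver, against 54632 and 49713 in LXRDKO liver. Both LXRDKO livers lay between the WT livers, and the log2 fold change was −0.03 (SE 0.14, 95% interval −0.38 to 0.32, adjusted P = 0.955, limma). Apoa5 (46268633 to 46271919) had 87000 and 96260 in WT liver, against 107104 and 113343 in LXRDKO liver. The LXRDKO livers both lay above those of WT, as in 21.7% of all genes tested. Its log2 fold change was 0.27 (SE 0.14, 95% interval −0.09 to 0.63), with adjusted P = 0.504 in limma and 0.413 in DESeq2. The unadjusted P values from these models across all genes (limma and DESeq2) were 0.115 and 0.0443. Without each liver in turn it lay between 0.19 and 0.34.

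An antisense gene, Gm47544, covers 524 of the 2522 exon bases of Apoa5. It had 1088 and 1290 normalized counts in WT liver, against 1907 and 1457 in LXRDKO liver, also without overlap, and a log2 fold change of 0.49 (adjusted P = 0.307, limma). Since the setting for strand in the counting is not stated, reads of Apoa5 and of Gm47544 in the shared bases cannot be told apart. The part of these reads in the Apoa5 values was not tested.

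Apoa4 (chromosome 9, 46240696 to 46243459) was the gene that varied most between livers of 1 genotype. It had 5937 and 6041 normalized counts in WT liver, against 4417 and 9724 in LXRDKO liver. The WT livers differed 1.02-fold and the LXRDKO livers 2.20-fold, and the WT livers lay between the LXRDKO livers. Its log2 fold change of 0.13 (SE 0.35, 95% interval −0.74 to 1.00, adjusted P = 0.920, limma) became −0.44 when LXRDKO replicate 2 was left out and 0.70 when LXRDKO replicate 1 was. Antisense genes cover 632 (Gm10680) and 634 (Gm47528) of its 1815 exon bases, with at most 175 and 25.7 normalized counts in any liver, and their reads cannot be told apart from those of Apoa4 in these bases. Enterocytes express Apoa4, and of 6 enterocyte markers the table held 3, which summed to between 14.8 and 31.4 normalized counts per liver. Of these, Vil1 had 11.4 and 30.6 in WT liver, against 12.3 and 22.5 in LXRDKO liver. Lct and Rbp2 had at most 3 reads in any liver, too few to compare livers. The part of enterocytes in the Apoa4 values was not tested.

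For 9 of the 10 genes, the difference between genotypes was below the larger of the differences between livers of the same genotype, the exception being Apoa5. The same held for 67.8% of all genes tested. The median difference between livers of 1 genotype was 0.14 in WT and 0.19 in LXRDKO for the 10 genes on the log2 scale, and 0.18 and 0.17 for all genes tested. The LXRDKO livers both lay above those of WT in 1 of the 10 genes and below both in 0, against 21.7% and 23.0% of all genes tested. The fold change was positive in 3 genes and negative in 7, against 7649 and 7929 of all genes tested.

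**Figure D2:**
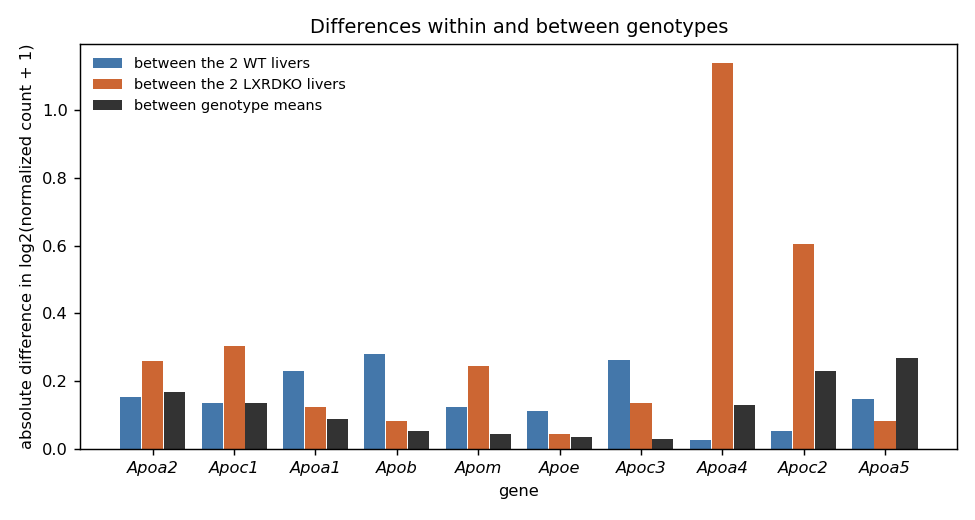
Absolute differences in log2(normalized count + 1) for each apolipoprotein gene, between the 2 WT livers (blue), between the 2 LXRDKO livers (orange) and between the genotype means (black). Only for Apoa5 is the black bar the tallest, and the orange bars of Apoa4 and Apoc2 stand at 1.14 and 0.60.

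The intervals are those of the limma model, gene by gene and before adjustment, and are not limits of detection. Their width draws on a variance trend over all genes as well as on the 4 livers. For Apoe, livers of 1 genotype differed by 0.11 (WT) and 0.04 (LXRDKO) on the log2 scale, while the SE was 0.36 in limma and 0.13 in DESeq2. The width of its limma interval thus rests mostly on the trend. The 95% limma interval lay within a 2-fold change in either direction for all 10 genes. It ran from −0.92 to 0.85 for Apoe and from −0.74 to 1.00 for Apoa4 on the log2 scale.

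**Figure D3:**
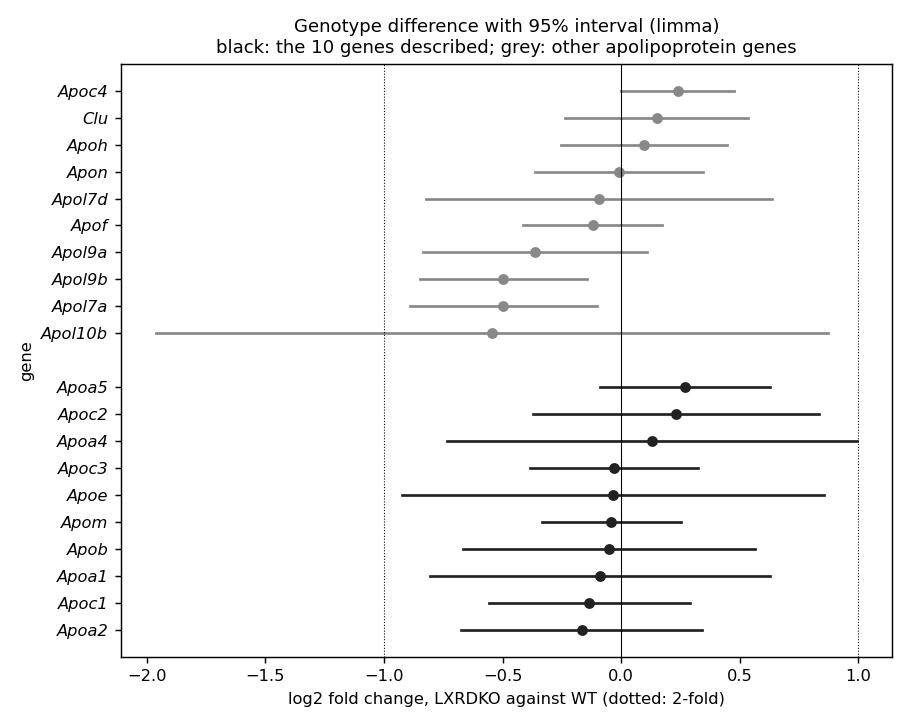
Log2 fold changes (points) with 95% limma intervals (lines) of the 10 apolipoprotein genes (black) and of 10 other apolipoprotein genes (grey), with dotted lines at a 2-fold change. All black intervals include 0, and those of Apol7a, Apol9b and Apoc4 among the grey do not, before adjustment.

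A list of other apolipoprotein genes had 15 of its 19 genes in the table, and 10 were tested. Limma, DESeq2 and edgeR called 0 of these 10, with 3 at an unadjusted P value under 0.05 in limma, against 13.3% of all genes tested, and the median log2 fold change was −0.11 against −0.0046 for all genes tested. Apoc4, next to Apoc2 in the Apoe cluster, had 8728 and 7862 normalized counts in WT liver, against 9909 and 9628 in LXRDKO liver. Both LXRDKO livers were higher, with a log2 fold change of 0.24 (SE 0.10, 95% interval 0.00 to 0.47, adjusted P = 0.375, limma). Apol9b had 2951 and 3156 in WT liver, against 1902 and 2459 in LXRDKO liver, a log2 fold change of −0.50 (adjusted P = 0.249, limma). Apol7a had 5391 and 4046 in WT liver, against 3102 and 3531 in LXRDKO liver, also −0.50 on the log2 scale (adjusted P = 0.294, limma). In both, the LXRDKO livers lay below the WT livers. Apol7a, Apol9a and Apol9b belong to families of similar mouse genes, and reads may be shared among their copies. The remaining values were −0.54 for Apol10b, −0.36 for Apol9a, −0.12 for Apof, −0.09 for Apol7d, −0.01 for Apon, 0.10 for Apoh and 0.15 for Clu.

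Genes around the 2 clusters were compared with their members. The 8 nearest tested protein-coding genes around the chromosome 9 cluster were Tagln, Sidt2, Pafah1b2 and Sik3 on one side and Zpr1, Bud13, Cadm1 and Nxpe4 on the other. Their log2 fold changes lay between −0.31 for Cadm1 and 1.67 for Nxpe4. Nxpe4, which lies 2031 kb from the middle of the cluster, had 53.6 and 48.4 normalized counts in WT liver, against 223 and 121 in LXRDKO liver (adjusted P = 0.151 in limma and 0.00200 in DESeq2). It was the only neighbour that DESeq2 called, while limma called 0 of 8. Zpr1, the nearest gene to Apoa5, had a log2 fold change of 0.25 with overlapping groups, and Bud13, the next, 0.32 without overlap.

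Around the Apoe cluster the neighbours were Zfp296, Clasrp, Relb, Clptm1, Tomm40, Nectin2, Bcam and Cblc. Their log2 fold changes lay between −0.22 for Relb and 0.27 for Bcam, and limma and DESeq2 called 0 of 8. The groups did not overlap in 4 of the 8: Clasrp, Tomm40 and Bcam were higher and Clptm1 lower in LXRDKO. Of all genes tested, 21.7% were higher and 23.0% lower without overlap. The fold change of Clptm1 turned positive when libraries were scaled to the same total. Nr1h2, one of the deleted genes, is on the same chromosome, 24.9 Mb from Apoe.

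**Figure D4:**
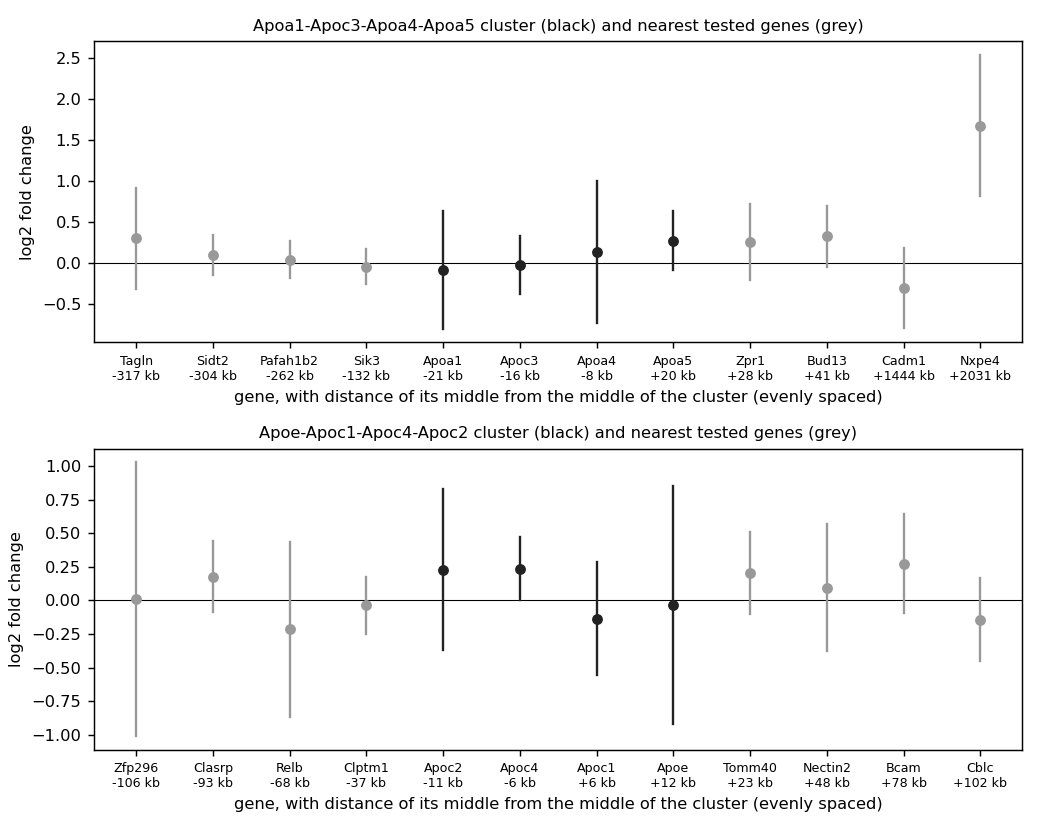
Log2 fold changes with 95% limma intervals of the genes of both clusters (black) and of the 4 nearest tested protein-coding genes on each side (grey), in genome order with the distance in kb from the middle of the cluster. Apart from Nxpe4 at 1.67, every point of the upper panel lies between −0.31 and 0.32, and those of the lower panel lie between −0.22 and 0.27.

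Other genes of lipoprotein metabolism were read beside the apolipoproteins. DESeq2 called 1.56% of all genes tested higher and 2.03% lower in LXRDKO livers, and it called genes in each of 4 lists. Limma called 0 genes in each of these 4 lists, with 3 of 12, 4 of 12, 4 of 9 and 7 of 17 tested genes at an unadjusted P value under 0.05, against 13.3% of all genes tested, and edgeR called 0. Of 12 genes of lipoprotein assembly and secretion, DESeq2 called 2, both lower. A1cf, a cofactor of apoB mRNA editing, had 15010 and 15414 normalized counts in WT liver, against 8309 and 9622 in LXRDKO liver, a log2 fold change of −0.77 (adjusted P = 1.08e-05 in DESeq2 and 0.0813 in limma). Mttp, which loads lipid onto nascent apoB, had 31184 and 32742 in WT liver, against 21243 and 24551 in LXRDKO liver, −0.48 on the log2 scale (adjusted P = 0.0231 in DESeq2 and 0.199 in limma). The LXRDKO livers both lay below those of WT in 6 of the 12 genes, A1cf and Mttp included, and above both in 0, against 23.0% and 21.7% of all genes tested. The median of the list was −0.13.

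Of 12 genes of plasma lipoprotein remodelling, DESeq2 called 2 lower, and the median was −0.26. Lpl, the lipase that apoC-II activates, had 1487 and 3667 normalized counts in WT liver, against 469 and 372 in LXRDKO liver, a log2 fold change of −2.48 (adjusted P = 0.00204 in DESeq2 and 0.111 in limma). Abcg1, a sterol exporter, had 330 and 452 in WT liver, against 171 and 163 in LXRDKO liver, −1.21 on the log2 scale (adjusted P = 3.97e-04 in DESeq2 and 0.120 in limma). Both genes are also expressed by macrophages, whose Kupffer markers are given above, and the part of these cells in the fold changes was not tested.

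Of 9 receptor genes tested of 10, DESeq2 called 1, Lsr, a receptor for remnant particles, and the median was −0.39. Lsr had 12135 and 12197 normalized counts in WT liver, against 9429 and 9144 in LXRDKO liver, a log2 fold change of −0.39 (adjusted P = 0.0494 in DESeq2 and 0.161 in limma).

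Transcription factors known to act on apolipoprotein genes were called in both directions. Of 17, DESeq2 called 2 higher and 3 lower, with a median of −0.16. Hnf4a, a nuclear receptor that drives many apolipoprotein genes in hepatocytes, had 44147 and 38999 normalized counts in WT liver, against 70769 and 56007 in LXRDKO liver, a log2 fold change of 0.60 (adjusted P = 0.0115 in DESeq2 and 0.224 in limma). Foxa2, a forkhead factor of hepatocytes, had 1293 and 1614 in WT liver, against 2422 and 2294 in LXRDKO liver, 0.71 on the log2 scale (adjusted P = 0.00319 in DESeq2 and 0.131 in limma). Nr0b2, a corepressor induced by bile acid signalling, had 1055 and 700 in WT liver, against 285 and 402 in LXRDKO liver (log2 fold change −1.34). Ppara, the fatty acid receptor, gave −0.58 and Nr2f2, an orphan nuclear receptor, −0.53. Across the 17 genes, the LXRDKO livers both lay above those of WT in 2 and below both in 7, the 5 called included. The same held for 21.7% and 23.0% of all genes tested.

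**Figure D5:**
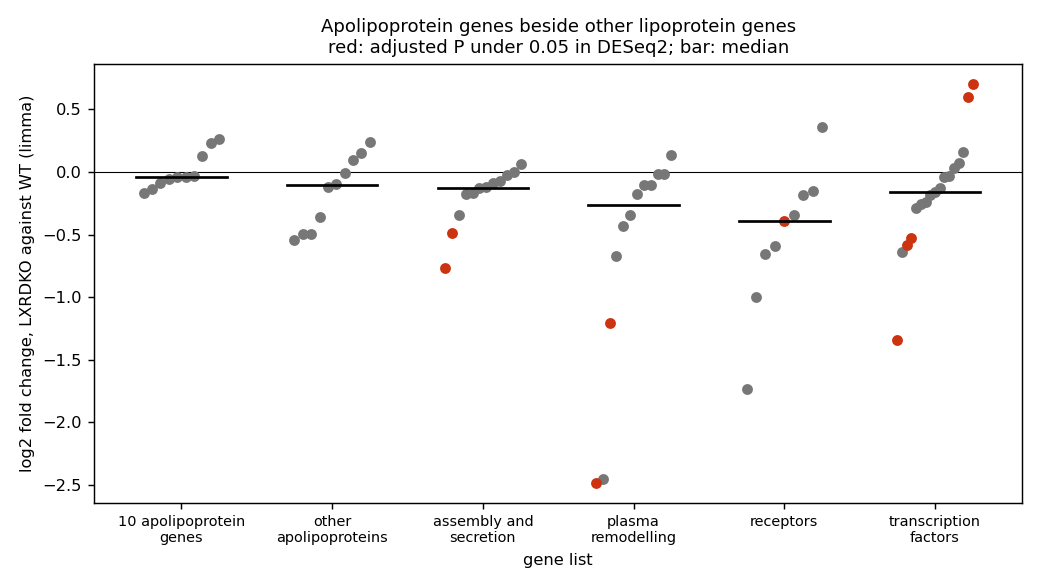
Log2 fold changes of the 10 apolipoprotein genes and of 5 other gene lists, 1 point per tested gene in rising order within a list, with red for an adjusted P value under 0.05 in DESeq2 and a bar at the median. The 10 apolipoprotein genes lie between −0.17 and 0.27 with no red point, while the lists to the right of the other apolipoproteins hold 2, 2, 1 and 5 red points.

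Markers of further cell types were read beside these values. Sinusoidal endothelium had 1 of 6 markers, Kdr, called lower by limma (0.186% of all genes tested), DESeq2 (2.03%) and edgeR (0.315% in either direction). An unadjusted P value under 0.05 in limma was seen in 2 of 6, and the log2 fold change was negative in 5 and positive in 1. These markers summed to 12616 and 11548 in WT liver, against 10484 and 8024 in LXRDKO liver. Stellate cell markers summed to 11537 and 12802 in WT liver, against 16641 and 18850 in LXRDKO liver, and DESeq2 called 2 of 6 higher (1.56% of all genes tested) and limma and edgeR 0, while 3 of 6 stellate cell and 3 of 6 cholangiocyte markers had an unadjusted P value under 0.05 in limma. Cholangiocyte markers summed to 2092 and 3628 in WT liver, against 4617 and 5477 in LXRDKO liver, where DESeq2 called 1 of 6 higher (1.56% of all genes tested) and limma and edgeR 0. The LXRDKO livers were the higher ones without overlap in 6 of 6, against 21.7% of all genes tested. Blood markers summed to between 8647 and 10463 per liver with 0 of 5 called by limma, DESeq2 or edgeR and 0 at an unadjusted P value under 0.05 in limma. Most of this sum was Alas2, with 9865 and 6678 in WT liver, against 8653 and 8014 in LXRDKO liver. The globin gene Hbb-bs was uneven between the WT livers, with 459 and 1562, against 1011 and 1007 in LXRDKO liver. The part of these cell types in the apolipoprotein values was not tested.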

How the data were processed

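RNA was isolated from frozen liver, polyadenylated RNA was captured with the KAPA Stranded kit, and the authors aligned the reads to mm10 with STAR 2.6.0c. The deposited signal is a normalized count that the authors made with DESeq2, that is, reads per gene divided by 1 size factor per library. All values (100%) were whole reads within a tolerance of 0.01, and no column was left unused (0). Gene positions were from GENCODE M21 on GRCm38, to which 24987 identifiers matched and 23 did not.

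Genotypes were compared on log2(normalized count + 1) by limma 3.58.1 (R 4.3.3), with empirical Bayes moderation and a variance trend. The 15578 genes whose mean reached 10 were tested, and Benjamini-Hochberg adjustment ran over all of them at a threshold of 0.05. Fold changes on this scale understate those of low genes. On the recovered reads, DESeq2 1.42.0 and edgeR 4.0.16 (quasi-likelihood) were used, and all tools were tested on simulated data. Other pseudocounts, filters, scalings, a replicate block and leaving out each liver were alternatives. Across genes, livers of the same replicate number did not deviate alike from their genotype means (correlation 0.0031). This does not show whether the mice were paired by design. The genes and lists were chosen with earlier results of these data known. Named were the 10 genes, all tested other apolipoprotein genes, list genes that limma or DESeq2 called, both receptors and the 4 nearest tested protein-coding genes on each side of a cluster. The values of 1 list gene are not reported here. Each mouse was 1 replicate. Depth was 55772659 to 72842744 reads per liver, and the counting error given covers sampling of reads only.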

Additional observations from a re-analysis of the deposited data

How the results depend on the processing

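Across 14 alternatives, none of the 10 apolipoprotein genes passed the threshold, the lowest adjusted P value being 0.219 for Apoa4 without LXRDKO replicate 1. Of 140 values, 126 kept their direction and 14 reversed, and Apoa2 and Apoa5 never reversed. Library total scaling moved the median of all genes to 0.05 and reversed Apob to 0.00265, Apoc3 to 0.0242, Apoe to 0.0189, Apom to 0.0123, Apon to 0.0447 and Clptm1 to 0.0171. When each liver was left out, the log2 fold change ranged from −0.20 to 0.0255 for Apoa1, −0.30 to −0.0367 for Apoa2, −0.44 to 0.70 for Apoa4, 0.19 to 0.34 for Apoa5, −0.19 to 0.0879 for Apob, −0.29 to 0.0165 for Apoc1, −0.0719 to 0.53 for Apoc2, −0.16 to 0.10 for Apoc3, −0.0910 to 0.0196 for Apoe and −0.17 to 0.0805 for Apom. Of these, Apob, Apoc3 and Apoe reversed without WT replicate 1, Apoa1 and Apom without WT replicate 2, and Apoa4, Apoc1, Apoc2, Apoc3 (0.0378) and Apom without LXRDKO replicate 2. Among other genes, Apol7d ranged from −0.403 to 0.22 and was also positive without WT replicate 1 (0.0865), Apon was 0.0897 to 0.15 where it reversed, and Relb ranged from −0.431 to 0.00142. The cause was not tested.

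Members of the 10 without overlap ranged from 1 to 3 higher and from 0 to 5 lower when a liver was left out. Fewer livers make overlap rarer by construction. The share of all genes tested without overlap is given here only for all 4 livers. Whether these counts are high or low for a comparison with a liver left out thus cannot be told. Genes called by limma in all were 50, against 25 where a mean of 50 was required, 1 without the variance trend, 567 with DESeq2 and 2 to 262 with a liver left out. DESeq2 called 2 genes of assembly, 2 of remodelling, 1 receptor and 5 transcription factors, against 3.59% of all genes it gave an adjusted P value. With all 4 livers, limma called 0 in each of these lists, against 0.321% of all genes tested. Fits with a liver left out were run with limma only. Livers of the same replicate number did not deviate alike across genes (correlation 0.0031), which does not show whether the mice were paired by design. A replicate block in limma gave 90 genes in all, 1 of remodelling (Pltp) and 0 of the 10 apolipoprotein genes. Scaling to the library total moved the mean level of each of the 10 genes over the 4 livers by less than 1 SD over these 4 livers. Its factors lay between 0.980 and 1.03, so this mean could hardly move, and it does not bear on the difference between genotypes. With 2 livers a genotype, the intervals given are not limits of detection. For example, limma did not call A1cf, whose interval of −1.03 to −0.50 excluded 0 before adjustment.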

Other observations

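Ratios of levels per kb of exon within a liver compare apolipoproteins without the scaling between libraries. Apoc1 to Apoe, neighbours in 1 cluster, gave 0.275 and 0.271 in WT, against 0.279 and 0.233 in LXRDKO. Apoa2 to Apoa1, the main proteins of high-density lipoprotein, gave 0.966 and 0.741 in WT and 0.841 and 0.765 in LXRDKO. Apoa5 to Apoc3 gave 0.600 and 0.796 in WT and 0.788 and 0.917 in LXRDKO, so the groups overlapped although those of Apoa5 alone did not. Apoa4 to Apoa1 gave 0.00625 and 0.00543 in WT and 0.00438 and 0.0105 in LXRDKO, with the LXRDKO livers again the lowest and the highest. Apoc4 to Apoc2 gave 13.4 and 11.6 in WT and 15.7 and 10.0 in LXRDKO, over all exon bases. Gm44805 shares 646 of the 813 exon bases of Apoc2 but 119 of the 2537 of Apoc4. The size of this ratio thus depends on how shared bases were counted, mainly through Apoc2. These ratios are descriptions with no test.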
